A study of Mus musculus with 6 samples.

Results

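The genes described here are 10 that mark the T lineage: Ptcra, Tcf7, Gata3, Bcl11b, Cd3e, Cd3g, Cd3d, Thy1, Lck and Zap70. They were chosen by name, with earlier results of these data known. Of them, 9 had a row in both deposited tables, out of 16799 genes that did. The tables hold FPKM (fragments per kilobase of transcript, scaled to library depth). Thy1 was not analysed here. The cells were BaF3, a mouse blood cell line labelled as pro-B cells of chronic lymphocytic leukemia. They were kept in 2 ng/mL mouse interleukin-3 with 10% serum, nucleofected with a plasmid and sorted 24 h later. The con group received pmax-Clover, the plasmid of a green fluorescent protein with no Notch part. Cells of the ICN group were given pmax-Clover-ICN, which carries the intracellular part of NOTCH1, and those of the CTdel group pmax-Clover-CTdel, a mutated ICN plasmid according to the design text. Each group had 2 libraries, numbered 1 and 2, and each number had its own table. All 3 groups thus carried Clover, and all libraries came from 1 cell line. Whether a group's libraries are separate cultures is not stated, and p-values then measure only the spread between these libraries, which may be technical. What CTdel removes, the species of the ICN insert and the sort gate are not given in the labels.

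Notch signalling is the switch that commits blood progenitors to the T lineage in the thymus. Ptcra, encoding the pre-T-cell receptor alpha chain, and Tcf7, encoding the transcription factor TCF-1, are known Notch targets there, and Gata3 and Bcl11b follow them as T-lineage factors. The pre-T alpha chain pairs with a rearranged beta chain and signals through the CD3 chains (Cd3e, Cd3g, Cd3d) and the kinases LCK and ZAP-70.

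The 250 bases before the transcription start are printed for 3 members, from RefSeq's promoter table for GRCm38.p6, which held 9 of 9 members. Ptcra is shown because it was the member with the highest mean FPKM in each group. Cd3g and Zap70 are shown because theirs were the windows of members that held the RBPJ motif GTGGGAA, RBPJ being the DNA-binding partner of the Notch intracellular part. Sequences run 5′ to 3′ on the gene's strand. Capitals mark matches on either strand to the motifs searched. Besides that of RBPJ these were the E-box, spelled CANNTG and bound by E proteins such as E2A and HEB, the RUNX motif, spelled TGTGGT, the motif of GATA factors, for which AGATAA was searched, and the TCF/LEF motif of TCF-1, spelled CTTTGA.
Ptcra, chr17:46763713-46763962, minus strand: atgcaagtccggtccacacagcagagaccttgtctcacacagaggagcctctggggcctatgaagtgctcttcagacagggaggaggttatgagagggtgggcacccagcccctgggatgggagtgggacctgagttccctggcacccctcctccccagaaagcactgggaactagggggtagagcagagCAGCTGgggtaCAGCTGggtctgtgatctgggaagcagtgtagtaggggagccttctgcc
Cd3g, chr9:44980432-44980681, minus strand: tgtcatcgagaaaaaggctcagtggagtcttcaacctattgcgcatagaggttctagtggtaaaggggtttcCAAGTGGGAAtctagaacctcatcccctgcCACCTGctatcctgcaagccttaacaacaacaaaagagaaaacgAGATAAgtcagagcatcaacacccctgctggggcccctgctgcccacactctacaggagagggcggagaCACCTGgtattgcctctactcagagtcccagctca
Zap70, the first of 3 starts, chr1:36761548-36761797, plus strand: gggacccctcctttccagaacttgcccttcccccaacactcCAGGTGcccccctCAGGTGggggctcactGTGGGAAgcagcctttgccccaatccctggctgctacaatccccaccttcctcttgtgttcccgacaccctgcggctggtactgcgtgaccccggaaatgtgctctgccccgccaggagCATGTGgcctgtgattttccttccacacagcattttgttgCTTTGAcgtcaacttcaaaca
The Ptcra window held 2 E-boxes, which began 60 and 49 bases before the start and had the same 6 letters. In Cd3g the RBPJ match began 175 bases before the start and overlapped the E-box that began 178 bases before it. In Zap70 the RBPJ match began 180 bases before the start. Among all 32851 promoter windows of that length in the table, 5.42% held the RBPJ letters, 66.2% an E-box, 14.0% the RUNX, 9.99% the GATA and 13.8% the TCF/LEF letters. A match is a description of letters and says nothing of binding in these cells.

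In the libraries as a whole, FPKM of Notch1, which does not separate plasmid from cell transcripts, were 0.89 and 1.72 in con, 190 and 888 in ICN and 84.9 and 25.4 in CTdel. Genes above 0 numbered 14951 and 14981 in con, 16413 and 16946 in ICN and 15822 and 15599 in CTdel. For small RNA genes of a given length the lowest value above 0 was taken to stand for a single read. A line through such values put the depth at 18400000 to 20600000 reads per library. Between 14 and 17 of the 17 to 24 lengths used lay within 2% of the line. In con replicate 2 these were 14 of 17, and in ICN replicate 2 they were 14 of 23. Carried to genes with 1 transcript of 800 to 1200 bases, the line gave 1 to 4 whole reads, within 0.15 of a read, for 70.7% to 79.3% of the low values checked. Evenly spread values would give 30%. Of the members Cd3g (1023 bases) falls in that range, and the others are longer and were not covered by this check. Read numbers given here are estimates from that line. Against the pro-B label, the early B-cell genes Ebf1 and Igll1 stayed at or below FPKM 0.02 and 0.13 in all 6 libraries, while Cd79b stood between 3.62 and 13.4 and the kinase gene Btk between 48.7 and 80.5.

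Ptcra was the member with the highest mean in each group, and its level was higher in ICN than in con or CTdel. Its FPKM were 1.47 and 1.37 in con replicates 1 and 2, 4.12 and 4.95 in ICN, and 1.52 and 0.98 in CTdel. Both ICN libraries lay above the other 4, while con and CTdel overlapped. The estimate was 35 and 35 reads in con, 94 and 114 in ICN and 37 and 25 in CTdel. Within a table, the ICN value was 2.8 and 3.61 times that of con and 2.71 and 5.05 times that of CTdel. On the log2(FPKM + 1) scale, which understates changes of low genes, the difference of ICN from con was 1.19 (SE 0.25, 95% interval 0.57 to 1.81, unadjusted p = 0.00343, adjusted p = 0.169 by limma). For CTdel against con it was −0.12 (interval −0.73 to 0.50, adjusted p = 0.919). For CTdel against ICN, the direct comparison of the forms, it was −1.31 (interval −1.92 to −0.69, unadjusted p = 0.00219, adjusted p = 0.372). None of these passed the threshold of an adjusted p under 0.05 over 11050 tested genes. Leaving out ICN replicate 1 brought Ptcra past it in ICN against con (log2 difference 1.40) and in CTdel against ICN (−1.52). The remaining ICN library then has no replicate and the fit lends it the spread of the rest. Far more of all tested genes were called in both comparisons in that fit than in the full one, so this passing is not particular to Ptcra.

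Ptcra lies on the minus strand of chromosome 17 (46755663 to 46763712, GRCm38.p6, Gene ID 19208) and had 1 transcript of 1283 bases in the annotation. In con its mean exceeded that of 39.4% of the genes in both tables, in ICN that of 47.3% and in CTdel that of 37.8%, so most genes measured lay above it in all 3 groups. The 5 tested genes closest to it over the 4 within-table differences from con were AK010878, Slc7a14, Gm16702, Gm38415 and Gpatch3, at distances of 0.18 to 0.42 on the log2 scale. Gm38415, for example, had FPKM 0.37 and 0.25 in con, 1.74 and 2.47 in ICN, and 0.40 and 0.27 in CTdel.

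**Figure D1:**
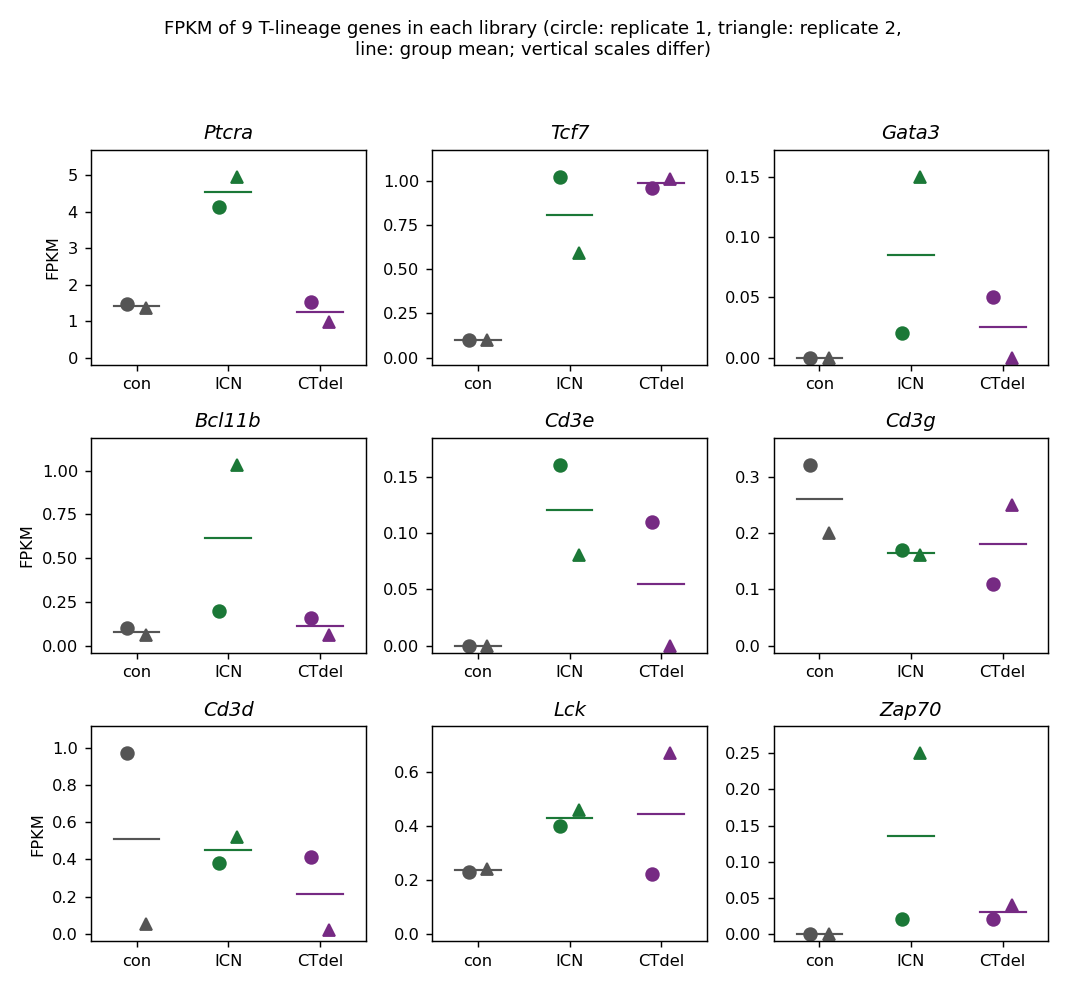
FPKM (vertical axis, linear, its range set by gene) of the 9 genes in con, ICN and CTdel, with replicate 1 as circles, replicate 2 as triangles and group means as lines. Ptcra is higher in ICN alone (4.12 and 4.95), Tcf7 is higher in both ICN and CTdel (0.59 to 1.02 against 0.1 in con), and Bcl11b is high in a single ICN library (1.03).

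Among the T-lineage transcription factors, Tcf7 was at least 5.9 times con in each ICN and CTdel library. It stood at FPKM 0.10 in both con libraries, at 1.02 and 0.59 with ICN, and between 0.96 (replicate 1) and 1.01 (replicate 2) with CTdel. Neither form overlapped con, while ICN and CTdel overlapped each other. With transcripts of 1742 and 2471 bases, con rests on an estimated 3 to 5 reads per library, ICN on 19 to 46 and CTdel on 32 to 50. Within a table, ICN was 10.2 and 5.90 times con, and CTdel 9.6 and 10.1 times. The log2(FPKM + 1) difference was 0.70 in ICN (SE 0.27, unadjusted p = 0.0400, adjusted p = 0.320) and 0.85 in CTdel (SE 0.27, unadjusted p = 0.0197, adjusted p = 0.274, both by limma). CTdel against ICN gave 0.15 (interval −0.51 to 0.81, adjusted p = 0.899). With a pseudocount of 0.1 the differences from con were 2.14 and 2.44, and with quantile normalization 0.19 and 0.47, with adjusted p of 0.255, 0.191, 0.700 and 0.546. Tcf7 lies on the minus strand of chromosome 11 (52246527 to 52283383, Gene ID 21414).

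Bcl11b, the factor that fixes T-cell identity, had FPKM 0.10 and 0.06 in con, 0.20 and 1.03 in ICN and 0.16 and 0.06 in CTdel. A single library, ICN replicate 2, stood apart from the other 5, with an estimated 47 to 154 reads depending on which of its transcripts (2522 to 8111 bases) they came from. Gata3, which directs early T-cell development and the type 2 helper fate, was listed at 0 in both con libraries. With ICN it stood at 0.02 and 0.15, and with CTdel at 0.05 and 0. Its highest value corresponds to an estimated 9 reads and the others to at most 3. Neither gene reached FPKM 1 in 2 libraries, so neither was tested.

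The CD3 chains, which carry the receptor's signal, showed no shared direction. Cd3g, Cd3d and Cd3e sit side by side on chromosome 9 (44969572 to 45009663), where Cd3g and Cd3d start 1355 bases apart on opposite strands. Cd3e was listed at 0 in con. Its values were 0.16 and 0.08 with ICN and 0.11 and 0 with CTdel, which is an estimated 4, 2, 3 and 0 reads outside con. Cd3g had 0.32 and 0.20 in con, 0.17 and 0.16 in ICN and 0.11 and 0.25 in CTdel, from 2 to 6 estimated reads in each library. Both ICN values lay below both con values, and CTdel overlapped con. Cd3d split by table rather than by plasmid in con and CTdel, with 0.97 and 0.05 in con and 0.41 and 0.02 in CTdel, beside 0.38 and 0.52 in ICN. In con that is an estimated 30 reads in 1 library and 2 in the other. Its mean of 0.510 ± 0.651 in con (SD, n = 2) therefore describes neither library.

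**Figure D2:**
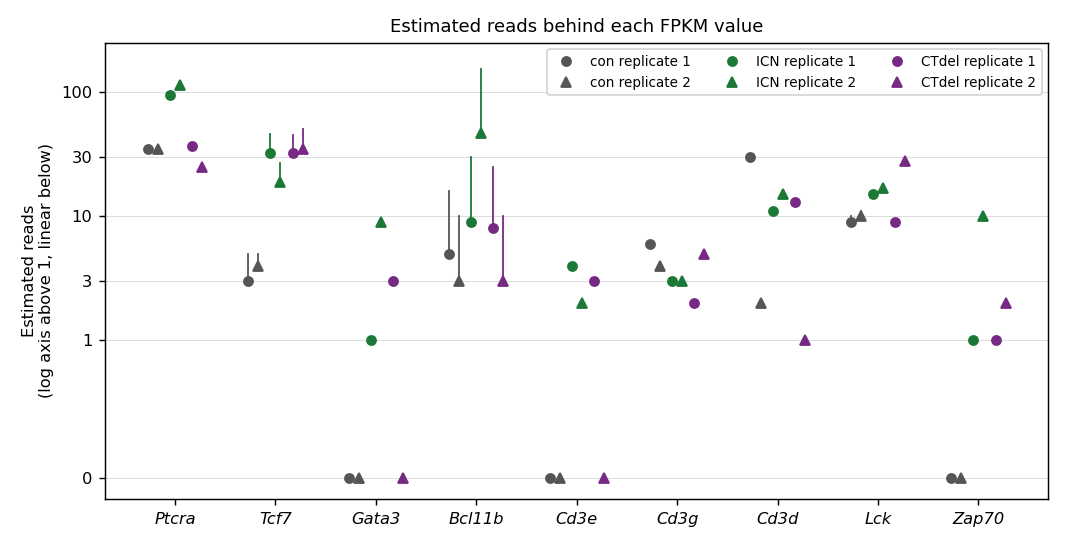
Estimated reads behind each FPKM value of the 9 genes (vertical axis, logarithmic above 1 and linear below), by group (colour) and replicate (circle 1, triangle 2). Points use the shortest annotated transcript and lines reach to the longest. Ptcra holds 25 to 114 reads, while Gata3, Cd3e, Cd3g and Zap70 hold at most 10 in any library.

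Of the kinases, Lck, the SRC-family kinase that starts signalling at the receptor, had FPKM 0.23 and 0.24 in con, 0.40 and 0.46 in ICN and 0.22 and 0.67 in CTdel. Both ICN libraries lay above both con libraries, at 1.74 and 1.92 times con within a table, on an estimated 15 to 18 against 9 to 11 reads. CTdel replicate 1 was 0.957 times con and replicate 2 was 2.79 times con, so CTdel overlapped both other groups. Zap70, the kinase that LCK activates, was listed at 0 in con. It had 0.02 and 0.25 with ICN and 0.02 and 0.04 with CTdel, with an estimated 10 reads in ICN replicate 2 and at most 2 elsewhere.

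Of the 9 genes, 7 were higher than con in both tables with ICN (all but Cd3g and Cd3d) and 2 with CTdel (Tcf7 and Zap70). Across all 16799 genes the same rule holds for 36.9% with ICN and 25.9% with CTdel. The 8 members other than Ptcra stayed under FPKM 1.1 in every library. Among the 5315 genes with that ceiling, 49.6% were higher than con in both tables with ICN and 24.2% with CTdel, against 6 and 2 of the 8 members. Lower in both tables were 1 of the 9 members with ICN (Cd3g, 19.5% of all genes and 5.81% of the low genes) and 1 with CTdel (Cd3d, 27.8% and 12.0%). Low genes were thus often higher with ICN in these libraries, beside a larger number of genes above 0, and the part of this in the members' values was not tested. Of the 6 members above 0 in both con libraries, Ptcra, Tcf7 and Bcl11b were at least 2 times con in both tables with ICN (7.42% of 13951 such genes), and Tcf7 alone with CTdel (4.9%). Among low genes of that kind the shares were 19.2% and 7.76%, against 2 and 1 of 5 members. The 8 other than Ptcra summed to FPKM 1.72 and 0.65 in con, 2.37 and 3.24 in ICN and 2.04 and 2.05 in CTdel. Fewer cells with a transcript and fewer transcripts per cell cannot be told apart in such bulk libraries.

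Ptcra and Tcf7 had FPKM of at least 1 in 2 or more libraries and were tested, and the other 7 were not. Tcf7 reached FPKM 1 only in ICN replicate 1 (1.02) and CTdel replicate 2 (1.01). Its place among the tested genes and its differences from con thus rest on the same values. Of these 2, limma called 0 in ICN against con, where it called 0.0362% of all tested genes, 0 in CTdel against con (1.41%) and 0 in CTdel against ICN (0.0181%). At an unadjusted p under 0.05 there were 2, 1 and 1 (15.0%, 11.8% and 7.13% of all tested genes). Fitted without the filter, the 7 low members had adjusted p of 0.346 or more in ICN, 0.761 or more in CTdel and 0.613 or more between the forms, with 1, 0 and 0 at an unadjusted p under 0.05.

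**Figure D3:**
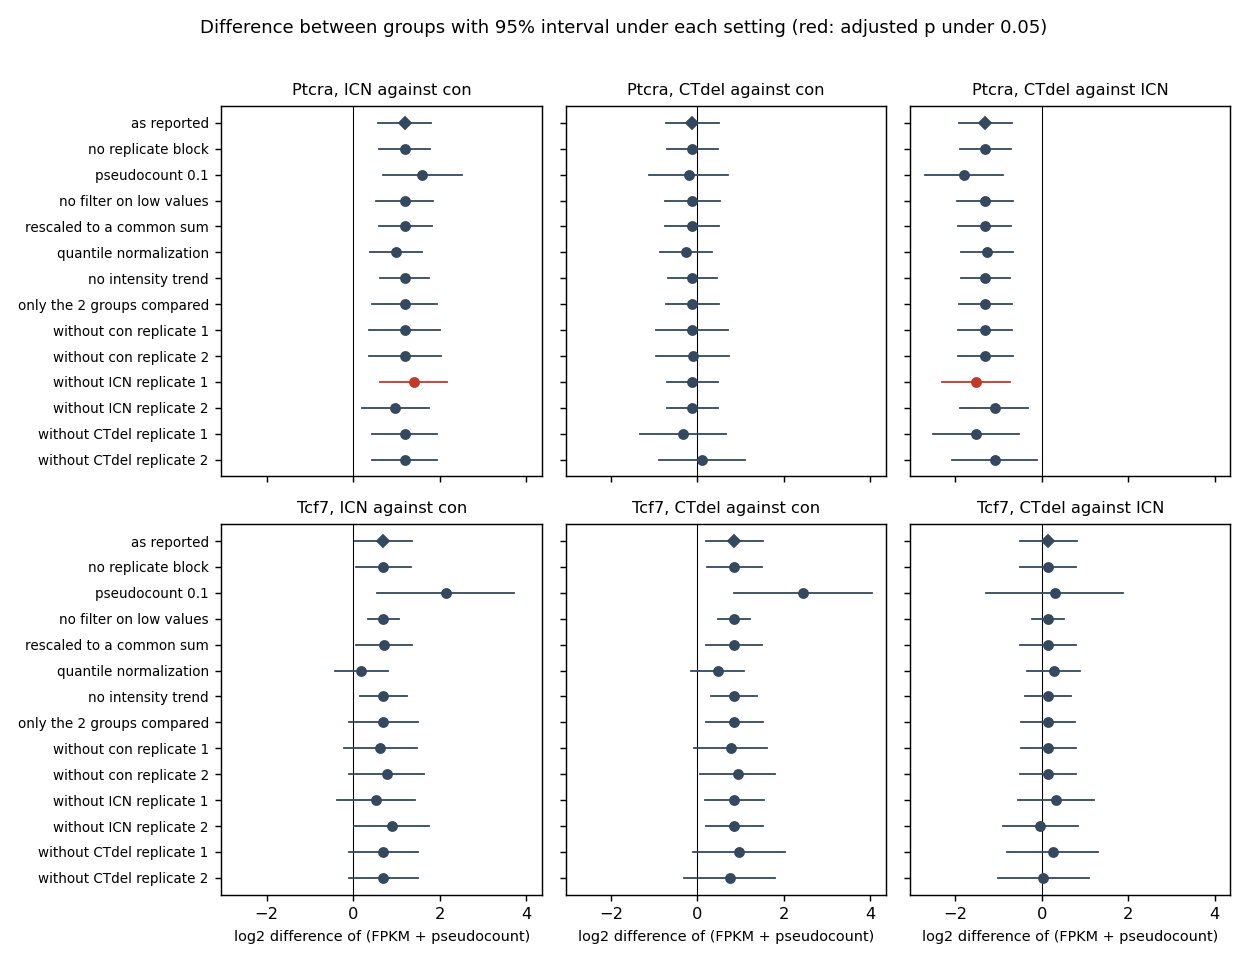
Log2 differences of Ptcra (top) and Tcf7 (bottom) with 95% intervals (horizontal axis) for each setting of the fit (vertical axis), with adjusted p under 0.05 in red. Ptcra lies between 0.98 and 1.60 in ICN against con and passes there only without ICN replicate 1, and Tcf7 passes in none.

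The partners of these genes were read from fixed lists. Of 19 T-cell surface and receptor genes 13 were in both tables and 5 were tested, of which 0 passed by limma in ICN, CTdel or between the forms. At an unadjusted p under 0.05 there were 1, 1 and 3, beside 15.0%, 11.8% and 7.13% of all tested genes. Cd247, the zeta chain of the receptor, had FPKM 0.79 and 0.19 in con, 0.88 and 1.31 in ICN and 1.72 and 0.54 in CTdel. The coreceptor genes stayed low, with Cd4 at or below 0.08, Cd8a between 0.49 and 0.94 and Cd8b1 at or below 0.44 in all 6 libraries. Ly6a, which encodes the surface antigen Sca-1, had 0.40 and 0.42 in con, 2.44 and 6.51 in ICN and 1.69 and 0.95 in CTdel (log2 difference 1.85 in ICN, adjusted p = 0.176). Cd7, a surface protein of early T and natural killer cells, had 0 in both con libraries, 0.43 and 0.16 with ICN and 1.53 and 3.32 with CTdel (adjusted p = 0.101 in CTdel). Like Ly6a, it stayed under FPKM 1 in con and passed the filter only through the other groups. Cd5 and Cd6, related receptors of T cells that were named after their values were seen, were also highest in CTdel. Cd5 had 0.03 and 0.05 in con, 0.64 and 0.05 in ICN and 1.73 and 0.81 in CTdel. Cd6 had 0 in both con libraries, 0.34 and 0 with ICN, and 3.01 and 0.98 with CTdel. Neither was tested. Not all genes of the list were higher in CTdel. Of the 5 tested, 4 had a positive and 1 a negative difference from con there, the latter Il2rb (−0.29, adjusted p = 0.700 by limma). The means of the untested Cd27 and Il7r were 0.535 and 0.055 in con and 0.38 and 0.01 in CTdel.

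Of the 25 tested genes that signal below the receptor, 2 rose in CTdel, where 1.41% of all tested genes were called (144 of the 156 higher). Ptpn22, a phosphatase that restrains LCK and ZAP-70, went from 2.99 and 1.73 in con to 14.8 and 9.95 in CTdel (log2 difference 1.99, adjusted p = 0.0202 by limma), with 9.56 and 6.95 in ICN (1.47, adjusted p = 0.113). Ptprc, the phosphatase CD45 found on nearly all white blood cells, went from 77.6 and 32.7 to 255 and 178 (log2 difference 2.06, adjusted p = 0.0263), with 142 and 83.6 in ICN (1.09, adjusted p = 0.176). Without CTdel replicate 1 or 2 the adjusted p of Ptpn22 was 0.0722 and 0.0626. That of Ptprc was 0.135 without CTdel replicate 2, 0.0531 without con replicate 2 and 0.104 in a model with groups only. The adaptor Lat had 5.96 and 4.33 in con, 10.5 and 11.8 in ICN and 7.17 and 5.74 in CTdel, a log2 difference of 1.0 in ICN (adjusted p = 0.188). The list had a median difference of 0.13 in ICN and 0.37 in CTdel, beside 0.00 and −0.06 over all tested genes, and 0 of the 25 passed in ICN. At an unadjusted p under 0.05 by limma there were 5 in ICN, 8 in CTdel and 7 between the forms. The shares over all tested genes were 15.0%, 11.8% and 7.13%.

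Of 13 tested factors of early T-cell development, Spi1 and Runx3 rose in CTdel (beside 1.41% of all tested genes called) and 0 passed in ICN. At an unadjusted p under 0.05 by limma there were 5 in ICN, 4 in CTdel and 2 between the forms (beside 15.0%, 11.8% and 7.13%). The differences were negative for 8 of the 13 in CTdel and 7 in ICN, with medians of −0.19 and −0.17. Among the negative ones were the progenitor factors Tal1 (−1.19 in CTdel, adjusted p = 0.0632) and Myb (−1.11, adjusted p = 0.118), named after their values were seen. Spi1 encodes PU.1, which early T progenitors express and then switch off. It went from 39.1 and 47.7 in con to 281 and 463 in CTdel (log2 difference 3.03, adjusted p = 0.0170), with 155 and 139 in ICN (1.74, adjusted p = 0.120). Runx3, a factor of CD8 T cells that myeloid cells also express, went from 14.6 and 17.0 to 36.9 and 46.2 (log2 difference 1.34, adjusted p = 0.0450). It lost its call without either con or either CTdel library (adjusted p = 0.0964 to 0.381) and in the model with groups only (0.0661). No library had Lef1, Tox, Satb1 or Gfi1 above FPKM 0.03, and Bcl6 stayed at or below 0.09. Other low factors of the list were higher than con. Tox2 had 0 in the con and CTdel libraries, and 0.13 and 0.16 in ICN. Ets1 had 0.03 in both con libraries, 0.10 and 0.12 in ICN and 0.11 and 0.21 in CTdel. None of these was tested. For receptor gene recombination, Rag1 and Rag2, the enzymes that cut the receptor genes, stayed at or below 0.03 and 0.08. Of the 6 tested genes 0 passed in ICN or CTdel (2 and 0 at an unadjusted p under 0.05, beside 15.0% and 11.8% of all tested genes). Dclre1c, the nuclease Artemis, differed from con by 0.91 with ICN and 0.20 with CTdel on the log2 scale (adjusted p = 0.221 and 0.830), and the end-binding Xrcc6 had −0.76 and −0.45 (0.299 and 0.628).

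Genes of other lineages were read from lists of their own, and their part in the members' values was not tested. Of the 3 tested B-cell markers 0 passed in ICN or CTdel (1 and 2 at an unadjusted p under 0.05, beside 15.0% and 11.8% of all tested genes). Cd79b, a signalling chain of the B-cell receptor, had log2 differences of 0.34 and 1.22, and its partner Cd79a 1.01 and 1.05. The FPKM of Cd79a were 0 and 0.79 in con, 1.35 and 2.08 in ICN and 0.84 and 3.15 in CTdel. It thus passed the filter only through the other groups, and its differences rest on the same values. The 10 B-cell markers in both tables summed to FPKM 82.3 to 84.7 in con, 56.4 to 74.2 in ICN and 68.0 to 80.2 in CTdel, most of it from the kinase gene Btk, which mast cells also express. The 8 natural killer and innate lymphoid markers summed to 12.4 to 12.8, 7.0 to 9.65 and 5.25 to 6.02, most of it from Zbtb16, the only one tested (log2 difference −0.65 with ICN, adjusted p = 0.278, and −1.10 with CTdel, adjusted p = 0.0970). Of 3 tested mast cell and basophil genes Gata2 and Cpa3 fell in CTdel (log2 differences −1.64 and −1.88, adjusted p = 0.0261 and 0.0437), where 12 of all 11050 tested genes fell. With ICN their differences were −1.24 and −1.21 (adjusted p = 0.123 and 0.185 by limma). Gata2 had FPKM 238 and 192 in con, 104 and 78.0 in ICN and 74.7 and 61.8 in CTdel. The con libraries of Cpa3 lay far apart, at 26.7 and 6.14, beside 10.1 and 2.34 in ICN and 4.56 and 1.64 in CTdel. The third, Hdc, which makes histamine and was named after its values were seen, went the other way without passing. It had FPKM 0.53 and 0.39 in con, 2.92 and 7.45 in ICN and 7.48 and 1.13 in CTdel (log2 differences 1.98 and 1.54, adjusted p = 0.292 and 0.473). Like Cd79a, Hdc stayed under FPKM 1 in con and passed the filter only through the other groups. The 6 in both tables summed to 268 and 200 in con, 118 and 88.6 in ICN and 87.5 and 64.8 in CTdel, most of it from Gata2. The mast cell proteases Tpsab1 and Mcpt4 stayed at or below 0.15 and 0.11. Cma1, another mast cell protease, had 2.68 and 0.92 in con, 0.98 and 0.71 in ICN and 0.44 and 0.24 in CTdel, and was not tested. Gata2 and Cpa3 lost their calls when either con library or CTdel replicate 1 was left out, and Gata2 also without CTdel replicate 2. With each library left out in turn, their log2 differences in CTdel ranged from −1.68 to −1.60 (Gata2) and from −2.26 to −1.49 (Cpa3).

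**Figure D4:**
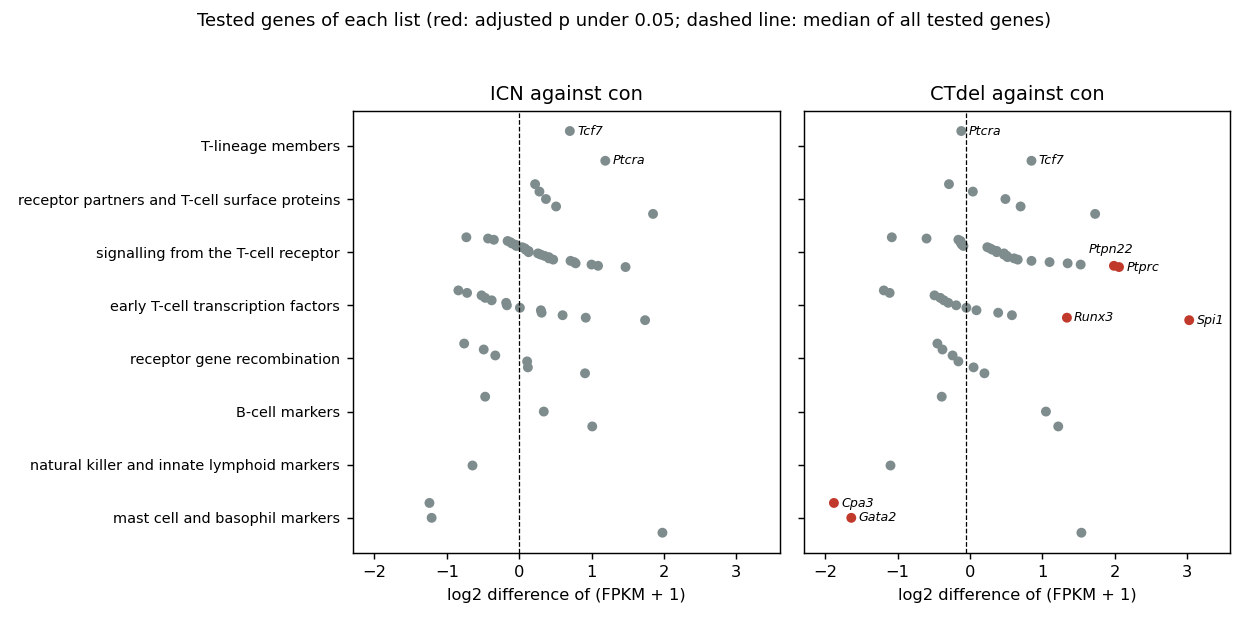
Log2 differences of FPKM + 1 (horizontal axis) from con in ICN (left) and CTdel (right) for the tested genes of each list (rows), with genes of adjusted p under 0.05 in red and the median of all tested genes as a dashed line. Ptcra and Tcf7 lie at 1.19 and 0.70 in the ICN panel and at −0.12 and 0.85 in the CTdel panel, and 6 genes, all in CTdel, pass.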

How the data were processed

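Total RNA of 6 samples was made into libraries with an mRNA kit, per the labels' protocols, and the authors deposited FPKM in 1 table per replicate number, per the file headers. The submitters' processing notes name hg19 and mm10 as builds and HISAT2, RSEM and Bowtie2 as tools. Which step used which, and in what version, is not given in the sources used here. Log2(FPKM + 1) was fitted by limma 3.58.1 (R 4.3.3) with an intensity trend and with group and table as terms. Tests were 2-sided with Benjamini-Hochberg adjustment over the 11050 genes that reached FPKM 1 in 2 or more libraries. The residual degrees of freedom were 2 and the median prior ones 3.82. The fit was tested on simulated data. Transcript lengths came from GENCODE M21 through RefSeq identifiers, which may differ from those behind the FPKM. Whole reads were not recovered, so no interval or detection limit from counts was computed.

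The table stayed in the model because each replicate number had its own table. Deviations of same-numbered libraries correlated at −0.0988 (con and ICN), 0.326 (con and CTdel) and 0.236 (ICN and CTdel) over genes. The members and lists were chosen with earlier results of these data known. All members are named, and of each other list the called genes, or else the 2 with the smallest p, plus Cd247, Cd4, Cd8a, Cd8b1, Lat, Rag1 and Rag2, and the 5 tested genes at the smallest Euclidean distance from Ptcra. Genes whose values are given as limits in all 6 libraries fall outside that rule and were picked with their values in view. So were Cd5, Cd6, Il2rb, Cd27, Il7r, Tal1, Myb, Tox2, Ets1, Hdc, Cma1 and Btk. Alternatives were another pseudocount, no filter, rescaling, quantile normalization, no trend, no table term, only the groups compared, and each library left out.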

Additional observations from a re-analysis of the deposited data

How the results depend on the processing

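Of Ptcra and Tcf7, the members fitted under all 13 alternatives, neither passed except Ptcra without ICN replicate 1, where calls over all tested genes also rose. The other 7 were fitted without the filter only, and none passed. Across the libraries left out in turn, members called ranged from 0 to 1 in ICN against con and in CTdel against ICN, and the log2 difference of Ptcra from 0.98 to 1.40 and from −1.52 to −1.09. Ptcra in CTdel against con turned from −0.12 to 0.10 without CTdel replicate 2 and was −0.33 without CTdel replicate 1. Tcf7 in CTdel against ICN turned from 0.15 to −0.03 without ICN replicate 2 and was at most 0.33. With no replicate block, Ptcra had an adjusted p of 0.143 in ICN, Tcf7 0.333 in ICN and 0.280 in CTdel, and 3, 130 and 2 genes were called over all (ICN, CTdel, CTdel against ICN), beside 4, 156 and 2. Of the genes named, Runx3, Cpa3 and Ptprc lost their calls without the block (adjusted p = 0.0661, 0.446 and 0.104), Cpa3 also on rescaling to a common sum and on quantile normalization (0.0505 and 0.0523), and the 6 called in CTdel lost them without a filter on low values. Genes called numbered 0, 0 and 0 without that filter (2328, 1592 and 1386 at an unadjusted p under 0.05), 162 and 730 with only the 2 groups compared in the fit (ICN and CTdel), and 0 in CTdel against ICN with a pseudocount of 0.1. With each library left out they ranged from 11 to 1470, 109 to 731 and 2 to 891. The cause of these moves was not tested. The low members rest on few estimated reads, and no bound on their differences was computed.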
